A study of Mus musculus with 2 samples.

Results

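The *Sox9* locus was examined in peak lists of DLX2 CUT&Tag made from wildtype C57BL/6 mouse maxillary process at E12.5. CUT&Tag uses an antibody to direct a transposase to a chromatin-bound protein, and the fragments it releases accumulate at the sites of that protein. The 2 libraries form 1 group of replicates, both made with an anti-DLX2 antibody. No control antibody, input or mutant entered the comparisons. Neither the labels nor the methods of the study say whether the libraries came from separate embryos or litters, so the spread between them may be technical. A peak belonged to *Sox9* if it lay inside the gene or if *Sox9* was its nearest protein-coding gene in the RefSeq annotation of GRCm38, which is mm10. By this rule *Sox9* had 11 of the 28061 peaks of replicate 1 and 28 of the 62093 peaks of replicate 2. A shared region is a segment covered by a peak of each replicate. *Sox9* had 10 of the 10921 shared regions. The paper reports fewer peaks per replicate and fewer common peaks, so its counts do not describe the lists used here.

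*Sox9* encodes a transcription factor of the SoxE group with an HMG-box DNA-binding domain. It is needed in cranial neural crest cells and for the commitment of mesenchyme to cartilage. The gene sits in a long stretch almost free of other protein-coding genes, in which distant enhancers act on it, and damage to the upstream part of that stretch in humans is linked to the small jaw and cleft palate of Pierre Robin sequence. *Dlx2* encodes a homeodomain factor of the facial processes. Peak lists hold no expression values, so neither the tissue nor the activity of *Sox9* could be checked in them.

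*Sox9* spans 5.548 kb on chromosome 11, at 112782210 to 112787757. The sequence nearest to it, called its territory here, ran from 112254256 to 113016304, or 762 kb. On the side of lower coordinates, which is upstream of *Sox9*, it reached 528 kb. Beyond it on that side lies *Gm11677*, a predicted protein-coding gene 1056 kb from *Sox9*, and then *Kcnj2*, a potassium channel gene 1705 kb away. On the other side the territory reached 229 kb, to the midpoint with *Slc39a11*, a zinc transporter gene 457 kb away. Along with *Sox9* it held 5 long non-coding RNA genes, namely *BC006965*, *Gm11681*, *Gm30562*, *1700012H19Rik* and *Gm46301*.

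Almost all of the peaks lay outside the gene, which makes up only 5.548 kb of the 762 kb territory. *Sox9* itself held 0 peaks in replicate 1 and 1 in replicate 2, at 112784111 to 112784292, with a fold enrichment of 4.38. Fold enrichment is the peak caller's ratio of summit fragments to those of the surrounding background in that library. The peak in the gene rested on 9 fragments and had no counterpart in replicate 1. Peaks of the upstream side numbered 9 in replicate 1 and 18 in replicate 2, which formed 8 shared regions. The downstream side had 2 and 9 peaks, which formed 2 shared regions. Per Mb, the upstream side had 17.0 peaks in replicate 1 (95% exact Poisson interval 7.79 to 32.4) and the downstream side 8.75 (interval 1.06 to 31.6). In replicate 2 these values were 34.1 (interval 20.2 to 53.9) and 39.4 (interval 18.0 to 74.8). The order of the sides was thus opposite in the 2 libraries, and the intervals overlapped in both. Intervals here and below cover counting error only, and neighbouring peaks may not be independent.

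**Figure D1:**
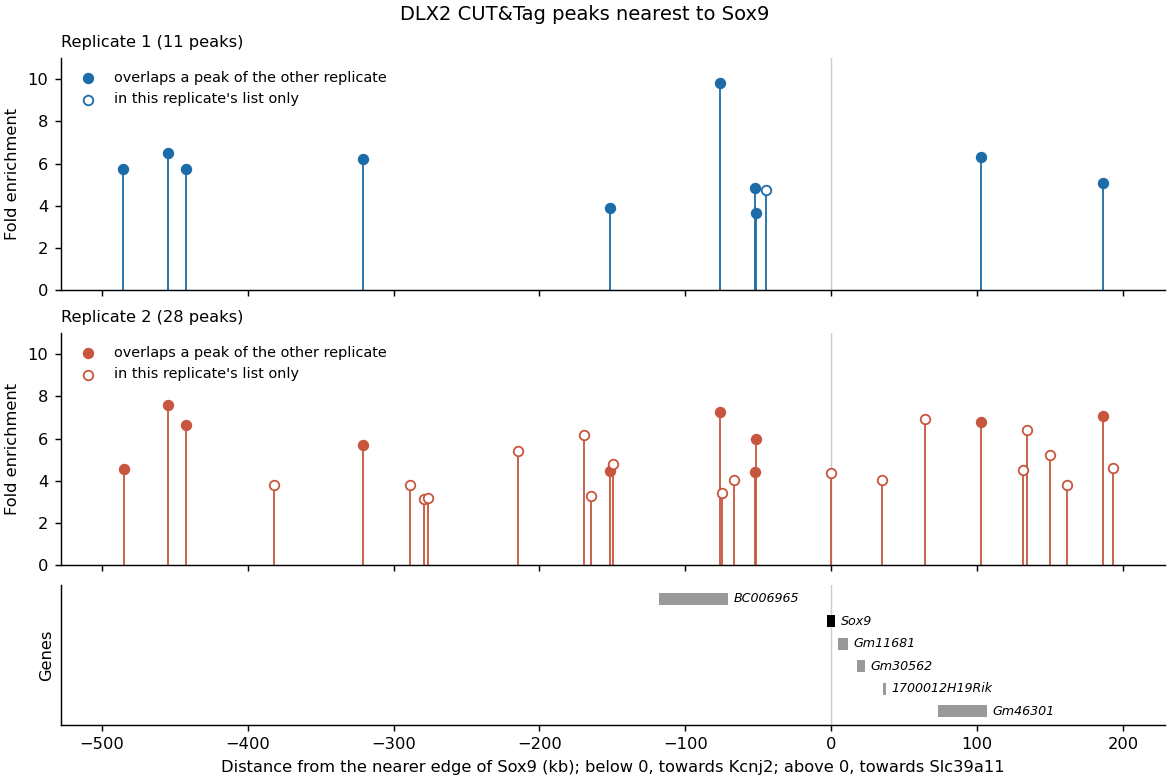
Each stem is a peak nearest to *Sox9*, placed by its distance in kb from the gene and drawn to its fold enrichment. Filled points overlap a peak of the other replicate and open points do not, and the lowest panel shows the annotated genes of the territory. Of the 11 peaks of replicate 1, 10 are filled, against 10 of 28 in replicate 2.

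The nearest shared regions formed a group upstream of the gene. The strongest of all, by the lower of its 2 folds, lay at 112705519 to 112705873, 76.3 kb from *Sox9* and inside *BC006965*. Replicate 1 had a fold of 9.83 there and replicate 2 one of 7.28. It rested on 16 fragments in replicate 1 and 18 in replicate 2. Only 5.02% of the autosomal shared regions had a lower of the 2 folds at least this high. A region at 112729668 to 112729817, 52.4 kb from *Sox9*, had folds of 4.86 and 4.42. Its neighbour at 112730323 to 112730406, only 0.506 kb farther on, was the shared region closest to the gene, at 51.8 kb. Its fold was 5.99 in replicate 2 but 3.68, from 5 fragments, in replicate 1. Of the autosomal shared regions, 84.0% reached its lower fold, so it was among the weaker ones.

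The start of *BC006965* falls within this group, between the strongest shared region and the pair nearer to *Sox9*. Its promoter, a window of 300 bases around the start, lies at chr11:112711307-112711606 on the minus strand of GRCm38.p6 and is given from RefSeq as the one reference sequence inside this group of peaks. No peak of either replicate overlapped it. The nearest peaks of replicate 2 ended 3.88 kb before it and began 3.93 kb after it, and the strongest shared region lay 5.43 kb away. Neither the homeodomain core TAATTA nor the SOX core AACAAT occurred in it on either strand, and it is therefore printed without capitals. TAATTA occurred in 5.29% and AACAAT in 10.7% of the 32851 promoters of the same length. The promoter reads, 5′ to 3′:
*BC006965*: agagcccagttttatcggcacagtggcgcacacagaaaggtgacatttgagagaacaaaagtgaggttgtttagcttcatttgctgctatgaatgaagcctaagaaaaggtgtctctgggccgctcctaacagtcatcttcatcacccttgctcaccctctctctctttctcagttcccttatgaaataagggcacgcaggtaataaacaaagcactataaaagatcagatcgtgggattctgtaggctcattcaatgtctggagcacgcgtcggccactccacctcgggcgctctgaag

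A second group of shared regions lay far upstream, between 442 and 485 kb from *Sox9* and in no annotated gene. At 112327256 to 112327529 replicate 1 reached 6.49-fold and replicate 2 reached 7.59-fold, with summits 1 bp apart. The region at 112339471 to 112339782 followed, with folds of 5.77 and 6.66. At 112296902 to 112297077, the farthest shared region of *Sox9* had folds of 5.77 and 4.57. These 3 regions had 7 to 8 fragments at the summit in replicate 1 and 9 to 15 in replicate 2. Between the groups, 2 shared regions stood alone. One lay at 112461189 to 112461381, 321 kb from *Sox9*, with folds of 6.21 and 5.71. The other, at 112630526 to 112630592 and 152 kb from the gene, was weak, with folds of 3.89 and 4.49.

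Downstream, the 2 shared regions lay farther out than the nearest upstream ones. The first, at 112890669 to 112890896, lay 103 kb from *Sox9* inside *Gm46301*, and its folds were 6.33 and 6.79. The second, at 112973828 to 112974215, lay 186 kb away in no annotated gene. It had the widest overlap of all, at 388 bp, with folds of 5.08 and 7.08, but its summits were also the farthest apart, by 276 bp. The lower fold of the first was reached by 11.3% of the autosomal shared regions and that of the second by 31.2%. Long non-coding genes thus held 2 of the 10 shared regions, and the other 8 overlapped no annotated gene. Such genes span 47.4, 6.28, 4.88, 2.16 and 33.5 kb of the 762 kb territory. The share over all autosomal shared regions is not given here, so the split is a description only.

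Set against all 10812 autosomal shared regions, those of *Sox9* had higher median folds and widths. In replicate 1 the median was 5.77-fold for *Sox9* and 5.05-fold for the autosomes. In replicate 2 these medians were 6.33 and 5.12. The median width of the shared segment was 211 bp against 151 bp. The median distance between summits was 87.5 bp against 63 bp, so the longer peaks of *Sox9* did not have closer summits. Spearman's rho between the folds of both libraries was 0.669 over the 10 regions and 0.440 over the autosomal ones. Regions are not independent replicates, so these values are descriptions.

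**Figure D2:**
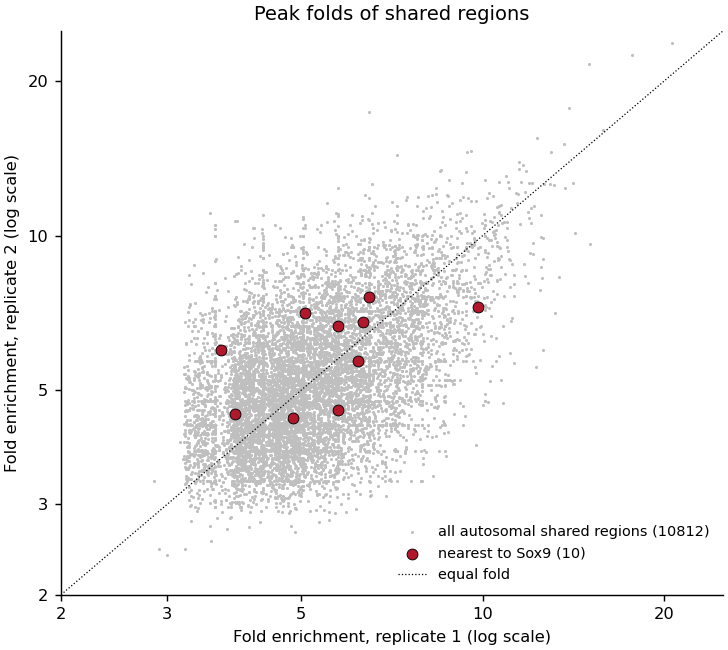
Each point is a shared region, with its fold enrichment in replicate 1 and replicate 2 on log axes, and the dotted line marks equal folds. The 10 regions nearest to *Sox9* lie in the body of the 10812 autosomal ones, and the region at 9.83 and 7.28 stands farthest to the right among them.

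Peaks near *Sox9* recurred between the libraries. In replicate 1, 10 of 11 peaks, or 90.9% (95% Wilson interval 62.3 to 98.4%), overlapped a replicate 2 peak, whereas 38.8% of all autosomal replicate 1 peaks did. In replicate 2, 10 of 28 peaks, or 35.7% (interval 20.7 to 54.2%), overlapped a replicate 1 peak, against 17.3% of the autosomal ones. Both intervals lay above the autosomal share. Fragment number was also higher at *Sox9* than over the autosomes. The median number of fragments at the summit, recovered from the fold and the p of the caller, was 7 for *Sox9* and 6 for the autosomes in replicate 1, and 11 and 9 in replicate 2. Autosomal peaks with the same fragment numbers as those of *Sox9* were overlapped in 52.2% of cases in replicate 1 and 26.6% in replicate 2. The interval of *Sox9* lay above the first value and contained the second, so that in replicate 2 a difference at equal fragment number was not detectable. Width was not matched, and median widths were 228 against 145 bp in replicate 1 and 241.5 against 193 bp in replicate 2. Where 50% of each peak had to overlap, 63.6% and 25% of the *Sox9* peaks were matched, and 7 shared regions remained. The autosomal shares at that setting are not given here.

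The peaks without a counterpart were mostly weaker than the matched ones, with a few exceptions in replicate 2. The only one in replicate 1 lay at 112737446 to 112737609, 44.6 kb upstream of *Sox9*, with a fold of 4.74 from 6 fragments. It was the replicate 1 peak closest to the gene. In replicate 2 the median fold of the 18 unmatched peaks was 4.21, against 6.33 for the 10 matched ones. The strongest unmatched peak lay downstream at 112852175 to 112852423, 64.4 kb from *Sox9*, with a fold of 6.94 from 15 fragments. The next were a downstream peak at 112922065 to 112922342 with a fold of 6.41 and an upstream one at 112612529 to 112612704 with a fold of 6.20, each from 14 fragments. These 3 were as strong as several matched peaks of the same list, whose folds ranged from 4.42 to 7.59. Just past the downstream end of the territory, a replicate 2 peak at 113016737 to 113016922, 229 kb from *Sox9*, had a fold of 3.60 and counted towards *Slc39a11*. Just past the upstream end, the next replicate 2 peak lay 593 kb from *Sox9*, with a fold of 5.24.

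The density of peaks was compared with the autosomal mean. The territory held 14.4 peaks per Mb in replicate 1 against 11.6 over the 19 autosomes, a ratio of 1.25 (interval 0.623 to 2.23). In replicate 2 it held 36.7 peaks per Mb against 25.4, a ratio of 1.45 (interval 0.961 to 2.09). The mean ratio of the replicates was 1.35 ± 0.140 (SD, n = 2). Both intervals contained 1, so a difference from the autosomal mean was not detectable when all listed peaks were counted. With stronger peaks this changed in replicate 2 only. Among peaks with a fold of at least 5, replicate 1 had 7 at *Sox9*, a ratio of 2.41 (interval 0.968 to 4.96), and replicate 2 had 12, a ratio of 3.19 (interval 1.65 to 5.57). The replicate 2 interval then lay above 1, as it did at a −log10 q of at least 2, where the ratio was 1.66 (interval 1.03 to 2.54). For replicate 1 the ratio at that −log10 q was 1.56 (interval 0.713 to 2.96), so its interval contained 1 at both settings. Shared regions stood apart more, with 13.1 per Mb against 4.50, a ratio of 2.92 (interval 1.40 to 5.36). Chromosome 11 as a whole was richer in peaks than the autosomal mean, with 14.3 per Mb in replicate 1, 33.0 in replicate 2 and 4.99 for shared regions. Against these, the ratios for *Sox9* were 1.01, 1.11 and 2.63. The stronger peaks alone are not set against chromosome 11 here. If *Gm11677* and other predicted genes did not bound the territory, it grew to 1087 kb with the same number of shared regions, and the ratios were 0.955, 1.20 and 2.05. The ratio for replicate 1 thus changed direction with that choice, and the interval for shared regions, 0.981 to 3.76, then contained 1. Linking each summit to the nearest gene of any type left *Sox9* 43.5 kb with 0 peaks in replicate 1, 1 in replicate 2 and no shared region. The ratios were then 0, 0.906 and 0, all below 1, with upper bounds of 7.34, 5.05 and 18.9. The ratio for shared regions thus depended on how the territory of *Sox9* was drawn.

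Counts of peaks varied along the territory, and whether they varied more than counting error was not tested. In steps of 100 kb, the first step upstream held 4 peaks of replicate 1, 5 of replicate 2 and 3 shared regions. Its counterpart downstream held 0, 2 and 0. The step from 400 to 500 kb upstream held 3 peaks of each replicate and 3 shared regions, so that each of its peaks recurred. Between 200 and 300 kb upstream there were 4 peaks of replicate 2 but none of replicate 1. From 100 to 200 kb downstream, replicate 2 had its highest number, 7, with 2 shared regions. Of the 7 full steps, 5 held a shared region, while 30.3% of the 24027 autosomal windows of that size did. As many as 3 shared regions were found in 3.07% of the windows, and the mean was 0.450.

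**Figure D3:**
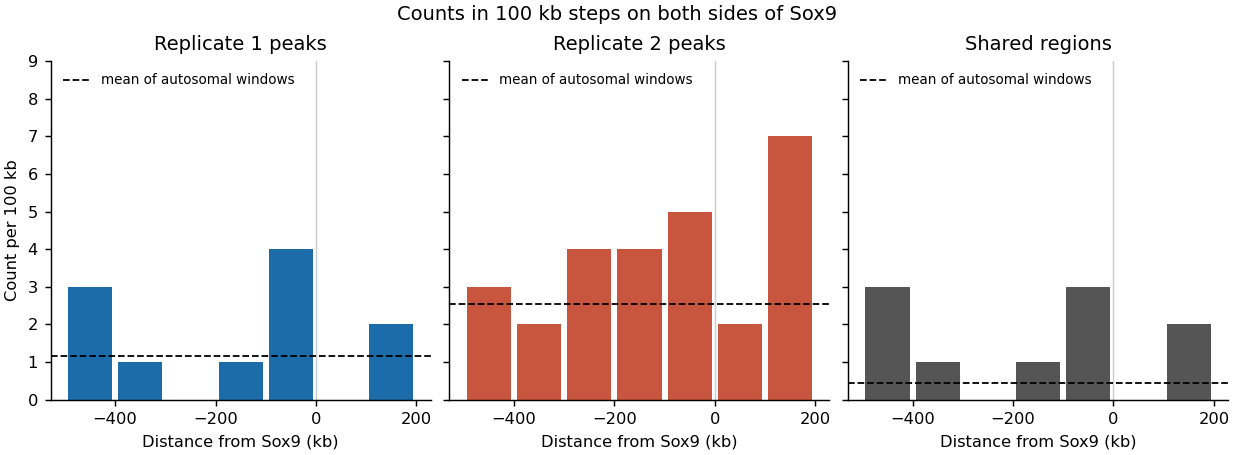
Bars give the peaks of each replicate and the shared regions in steps of 100 kb from *Sox9*, with the upstream side to the left of 0, and dashed lines give the mean of 24027 autosomal windows. Shared regions reach 3 in the first and the fifth step upstream and are absent from the first step downstream.

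The rest of the gene-poor stretch was sparser on the upstream side. Between *Kcnj2* and the start of the *Sox9* territory, 1177 kb held 10 and 18 peaks of replicates 1 and 2 and 4 shared regions. That is 3.40 shared regions per Mb (interval 0.926 to 8.70), against 15.2 (interval 6.54 to 29.9) in the upstream part of the territory. The 2 intervals overlapped. On the other side, the 229 kb from the end of the territory to *Slc39a11* had 70.0 replicate 2 peaks per Mb (interval 40.0 to 114). The downstream part of the territory had 39.4 (interval 18.0 to 74.8). In replicate 1 these values were 13.1 (interval 2.71 to 38.4) and 8.75 (interval 1.06 to 31.6). Here too the intervals overlapped, in both libraries. Both parts had 2 shared regions.

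The local background of the peaks was, by median, higher within 200 kb of *Sox9* than beyond. The caller's background under each peak was recovered in fragments and divided by the lowest value of its library, called the floor. Of the *Sox9* peaks, 8 of 11 in replicate 1 and 21 of 28 in replicate 2 had a background above the floor, and 72.8% and 68.0% of the autosomal peaks did, so their number was not unusual. Their place was uneven. Within 200 kb of the gene, 7 of 7 peaks in replicate 1 and 17 of 19 in replicate 2 were above the floor, with medians of 1.50 and 1.31 times the floor. Beyond 200 kb, 1 of 4 and 4 of 9 were, with medians at the floor in replicate 1 and within 1% of it in replicate 2. The highest value was 1.88 in replicate 1, under the strongest shared region, and 1.56 in replicate 2, under the region 52.4 kb upstream. In both libraries the background recovered under the peaks was thus higher within 200 kb than farther away. Over all autosomal peaks the medians were 1.25 and 1.18 times the floor, with upper quartiles of 1.54 and 1.49. The medians within 200 kb of *Sox9* lay below these upper quartiles, so they were not unusual. With no control, the background comes from the library itself, so fragments of a peak and its neighbours may count in it. Peaks beyond 200 kb lay on the upstream side only, so the downstream side has no such comparison. Because fold is taken over this background, the shared regions near *Sox9* had lower folds for their fragments than those far upstream. Above the floor, 7 of 8 replicate 1 peaks of *Sox9* were matched (interval 52.9 to 97.8%) against 43.0% of the autosomal ones, and at the floor 3 of 3 (interval 43.9 to 100%) against 27.8%. In replicate 2, 7 of 21 above the floor were matched (interval 17.2 to 54.6%), which contains the autosomal 19.4%. At the floor 3 of 7 were matched (interval 15.8 to 75.0%) against 12.7%. These are small numbers of peaks, and the part of the local background in recurrence and density was not tested.

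**Figure D4:**
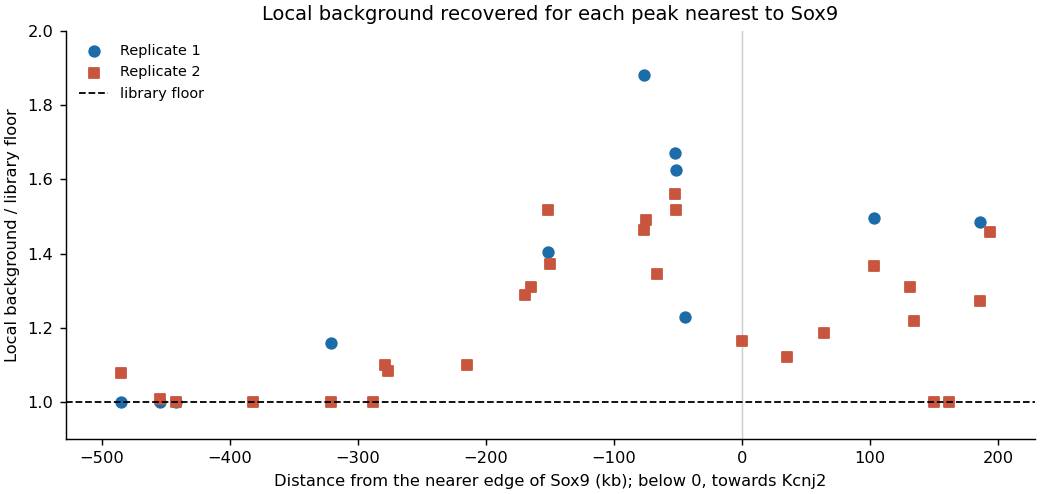
Each point is a peak nearest to *Sox9*, with its distance from the gene in kb and its local background divided by the floor of its library. Circles are replicate 1 and squares are replicate 2, and the points rise above the dashed floor mainly within 200 kb of the gene, up to 1.88 and 1.56.

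*Sox9* was then placed among other genes by the same linking rule. At least 1 peak was linked to 48.7% of the 20013 autosomal protein-coding genes in replicate 1 and to 68.1% in replicate 2, and at least 1 shared region to 27.4%. As many as 10 shared regions were linked to 64 genes including *Sox9*, or 0.32%. Long territories hold more peaks, and the median territory was 44.8 kb. Among the 1220 genes with a territory 0.5 to 2 times as long as that of *Sox9*, 77, or 6.31%, had at least its density of shared regions, *Sox9* included. Their median was 2.42 per Mb against 13.1 for *Sox9*. For all peaks the place of *Sox9* was less extreme, with 304 of the 1220 genes at or above its 14.4 peaks per Mb in replicate 1 and 211 at or above its 36.7 in replicate 2.

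**Figure D5:**
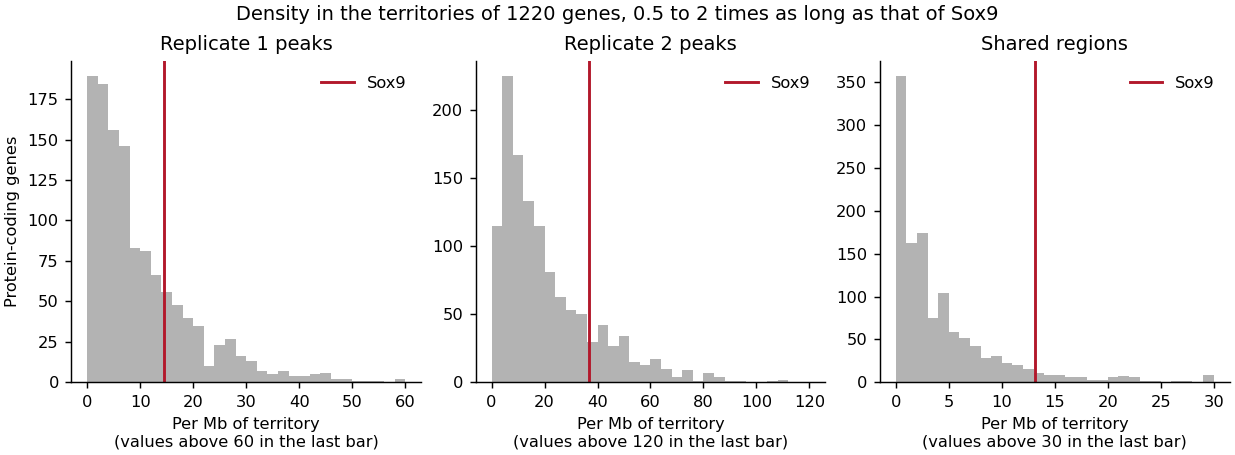
Histograms give the number of protein-coding genes by peaks or shared regions per Mb of territory, for 1220 genes with territories 0.5 to 2 times as long as that of *Sox9*. The line marks *Sox9*, at 14.4 per Mb in replicate 1, 36.7 in replicate 2 and 13.1 for shared regions, where 77 genes reach or pass it.

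The 5 genes of this set most like *Sox9*, by the Euclidean distance of log2 peaks per Mb in the 2 libraries, were *Nxpe4*, *Dhx35*, *Galnt17*, *Fhod3* and *Adra1b*, at distances of 0.0531 to 0.0994. *Dhx35*, a helicase gene, had nearly the same numbers as *Sox9*, with 11 peaks in replicate 1 and 29 in replicate 2 over 794 kb. It had 4 shared regions, or 5.04 per Mb. *Nxpe4* had 6 and 15 peaks but 1 shared region. *Galnt17*, a glycosyltransferase gene, had 4 shared regions and *Fhod3*, a formin gene of muscle, had 2. *Adra1b*, an adrenergic receptor gene, came closest to *Sox9* in shared regions, with 5, or 12.8 per Mb. At matched densities of the single libraries, shared regions thus ranged from 2.37 to 12.8 per Mb in these genes, and *Sox9* had 13.1. The difference was not tested.

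Of the 4 related Sox genes, *Sox5* had more shared regions than *Sox9* and the others had 1 or 0. *Sox5* and *Sox6* encode SoxD partners with which SOX9 acts in cartilage, and *Sox8* and *Sox10* are its SoxE relatives. Over 1370 kb, *Sox5* was linked to 41 and 56 peaks in replicates 1 and 2 and to 19 shared regions, or 13.9 per Mb. *Sox6* had 18, 13 and 1 over 900 kb, so that its many peaks seldom recurred. *Sox8* and *Sox10*, with territories of 43.3 and 43.5 kb, had no peak in replicate 1, 2 each in replicate 2 and no shared region. A list of 26 SOX9 partners, targets and cartilage genes was counted in the same way. At least 1 peak was linked to 18 of them in replicate 1 and 23 in replicate 2, and a shared region to 11, or 42.3%. These shares were higher than those of all genes, but the median territory of the list was also longer, at 64.5 kb against 44.8 kb. Of its 12 cartilage matrix genes, 8 had a peak in replicate 1, 10 in replicate 2 and 3 a shared region. The 3 were *Acan*, *Hapln1* and *Matn1*, and the other 9 had no shared region. Among all autosomal protein-coding genes the shares were 48.7%, 68.1% and 27.4%, so the 3 of 12 lay close to the last. *Acan*, which encodes the proteoglycan aggrecan, and *Hapln1*, which encodes a link protein of the same matrix, had 1 shared region each, and *Matn1*, a matrilin gene, had 6. *Col2a1*, the cartilage collagen gene and a direct SOX9 target, was among those with none, with 4 peaks in replicate 2 alone.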

How the data were processed

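DLX2 CUT&Tag peaks of 2 libraries from E12.5 wildtype maxillary process were used. The labels describe sonication and immunoprecipitation, but the study's methods a CUT&Tag kit with a transposase. The submitters' processing notes name Trim Galore 0.4.5, Bowtie 1.1.2 and MACS2 2.2.7 on mm10, and the methods name other versions of Trim Galore and bowtie2. Peaks were called for each library on its own. The deposited fold is the ratio of summit fragments to background, as the caller gave it. The deposited −log10 p and −log10 q are the caller's own, with no −log10 q below 1.00. The deposited score is the whole part of 10 times the −log10 q and was not used further. The deposited summit positions were used to match summits.

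Read totals are not given in the lists, so depth per library is unknown. Summit fragments and background were recovered by taking fold as fragments plus 1 over background plus 1, and p as a Poisson tail. A whole number was found for 100% of peaks in each replicate, within 0.001 on the −log10 p scale. The lowest autosomal background was 0.387 fragments in replicate 1 and 1.10 in replicate 2, and peaks at 1.01 times it or more were counted as above it.

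Of the RefSeq genes of GRCm38.p6, which give extents without strand or exons, 340 listed before position 3000000 were left out, leaving 49603 genes, 21779 of them protein-coding. Distances ran from peak edge to gene edge. Peaks were shared at 1 bp or more of overlap. Autosomal length ran from past position 3000000 to the last gene or peak. Intervals are 95% Wilson for shares and exact Poisson for counts. No test was made, since there is 1 group of 2 libraries. The linking, overlap and recovery of fragments were checked on simulated data. No sequence was at hand for the peaks or for the *Sox9* promoter. Named genes were *Sox9*, its neighbours, genes of its territory that hold a peak, 4 Sox genes and the 5 genes most alike. *Kcnj2*, the other genes of the territory, *Col2a1*, *Acan*, *Hapln1* and *Matn1* fell outside this rule and were chosen after their values were seen, as was the grouping of 12 matrix genes. Named regions were all shared regions and the 3 unmatched peaks of each replicate with the highest −log10 q, where there were as many. The peak inside *Sox9* and the replicate 2 peaks just outside the territory were named beside these, after their values were seen. The members and lists were chosen with earlier results of these data known. Alternatives covered weaker peaks, the linking, the overlap, the comparison length and each replicate alone. Values were computed with scipy 1.17.1, numpy 2.4.6 and pandas 2.3.3 in Python 3.11.15, and plots drawn with matplotlib 3.10.9.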

Additional observations from a re-analysis of the deposited data

How the results depend on the processing

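Of 47 alternatives, 34 kept the direction and stayed within 1.5 times the main count or within the interval or SD of the main value. Linking to the nearest gene of any type, from the summit, changed most, since long non-coding genes then cut the *Sox9* territory to 43.5 kb. It left counts of 0 and 1 for the libraries and 0 for shared regions, density ratios of 0, 0.906 and 0, all below 1, and 0% of the replicate 2 peaks matched. Without predicted protein-coding genes the replicate 1 ratio turned to 0.955, because the territory grew to 1087 kb. A fold of at least 5 left 7 peaks, 12 peaks and 6 shared regions by construction, and raised the ratios of the libraries to 2.41 and 3.19, so that the replicate 2 interval no longer contained 1. Why they rose was not tested. The mean ratio was 1.25 without replicate 2 and 1.45 without replicate 1. With 2 libraries each single value always lies within the SD of their mean, so only the direction could have changed there. Both are counted among the 34. The ratio for shared regions was above 1 under each other alternative, from 2.05 to 4.99. With no control library, DLX2 sites cannot be told apart from background common to both libraries, and most *Sox9* peaks rested on fewer than 16 fragments.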
